A study of Mus musculus with 44 samples.

Results

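The genes described here are 36 type I interferon-stimulated genes, read in the RNA of macrophages (MFs) sorted from regenerating mouse muscle. They were taken by name from a list whose rule holds no threshold on a measured value, and 36 of the 36 listed genes had a probe set of their own among the 19938 genes tested. The study followed MFs through the repair of the tibialis anterior muscle after an injection of cardiotoxin, a snake venom toxin that destroys muscle fibres, and asked how the nuclear receptor PPARγ acts in these cells. CD45+ blood-lineage cells were selected from the muscle with beads and sorted on the monocyte antigen Ly6C and the MF antigen F4/80. RNA was read on 44 one-colour Affymetrix gene arrays, each a sample of its own, and values are log2 intensities.

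WT animals were C57B6/J. KO animals carried floxed PPARγ alleles and LysM Cre (PPARg fl/fl LysM Cre+), a recombinase driven by the lysozyme M promoter, so that the deletion is aimed at cells of the myeloid lineage and not at MFs alone. At day 1 after injury, Ly6C+ F4/80low MFs of WT (n = 4) and KO (n = 4) were collected. At day 2 both Ly6C+ F4/80low and Ly6C- F4/80high MFs were collected, from WT (n = 6 for each subset), from KO (n = 5 for each subset) and from WT given rosiglitazone, a synthetic PPARγ ligand (n = 3 for each subset). At day 4 the arrays of WT (n = 4) and KO (n = 4) are labelled Ly6C+ F4/80low. Every group was injured. The labels give no ages, drug dose or uninjured muscle, and they call the arrays biological replicates without saying which animals each one came from, so p-values measure the spread between arrays.

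Type I interferons are cytokines that act through the receptor IFNAR1/IFNAR2 and the kinases JAK1 and TYK2. These activate the factor ISGF3, which includes STAT2 and IRF9 and binds the interferon-stimulated response element (ISRE) in front of its target genes. The products of the targets degrade or sequester foreign RNA, sense nucleic acids, tag proteins with ISG15 and feed back on the receptor, and in MFs they mark exposure to interferon or to nucleic acids.

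The response element can be read in the promoters of several members. RefSeq promoters of mouse build GRCm38.p6, from 250 bases before to 50 bases after the transcription start, were at hand for 27 of the 36 genes. The ISRE core, searched as GAAANNGAAA on both strands with overlapping matches allowed, was present in 12 of these 27 promoters (44.4%) and in 1079 of 27025 promoters of the whole table (3.99%). A kappaB motif, GGGANNNTCC on both strands, was present in 2 of the 27, those of Ifit2 and Isg20 (7.41%), and in 1409 of the 27025 (5.21%). The stretches that follow belong to members whose levels are described below, and are written 5′ to 3′ along the gene's strand with the matches to the ISRE core, in either orientation, in capitals.
Ifit1 (chr19:34640760-34640838, + strand): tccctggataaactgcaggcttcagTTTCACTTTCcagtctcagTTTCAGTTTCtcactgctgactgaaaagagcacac
Ifit3 (chr19:34583348-34583441, + strand): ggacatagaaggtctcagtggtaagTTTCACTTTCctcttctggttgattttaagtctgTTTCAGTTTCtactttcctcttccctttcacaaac
Ifit3b (chr19:34607744-34607837, + strand): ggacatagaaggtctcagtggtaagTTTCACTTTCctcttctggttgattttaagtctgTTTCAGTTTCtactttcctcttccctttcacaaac
Rsad2 (chr12:26456538-26456597, - strand): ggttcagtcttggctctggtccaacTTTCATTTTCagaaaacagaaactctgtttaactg
Stat2 (chr10:128270251-128270310, + strand): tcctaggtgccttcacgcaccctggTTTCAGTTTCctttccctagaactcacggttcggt
Bst2 (chr8:71537562-71537627, - strand): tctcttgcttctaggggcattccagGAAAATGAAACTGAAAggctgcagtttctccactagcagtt
Ddx60 (chr8:61928009-61928086, + strand): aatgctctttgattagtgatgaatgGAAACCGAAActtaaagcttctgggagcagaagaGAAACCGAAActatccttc

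The stretches of Ifit3 and Ifit3b were identical over 94 of 94 bases. The genes are near-identical neighbours on chromosome 19, so their probe sets may read each other's RNA and their separate values are uncertain. Bst2 held 2 overlapping matches, and in Ddx60 the nearer match ended 9 bases before the start. Ifit2 held no match to these letters in its window.

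Array medians lay between 6.64 and 6.77, correlations between arrays ran from 0.935 to 0.996 and no pair of arrays was identical. The probe set shared by Ly6c1 and Ly6c2 averaged 11.9 in WT Ly6C+ and 8.78 in WT Ly6C- MFs at day 2, and Adgre1, which encodes F4/80, averaged 11.5 and 12.1, as the sort labels have it. The day 4 arrays, labelled Ly6C+ F4/80low, had 9.88 for the Ly6c probe set in WT and 9.83 in KO, between the day 2 subsets, and 12.3 for Adgre1 in both genotypes, above either day 2 subset. They are called the arrays labelled Ly6C+ below, and are set against both day 2 subsets. Pparg averaged 9.21 to 10.4 over the 10 groups with no KO group past the test, and where its probes lie relative to the floxed exons was not analysed here. Lyz2, the gene that LysM Cre sits in, averaged 9.49 to 9.72 in the KO groups and 13.0 in WT at days 1 and 4 and in the rosiglitazone groups. The WT day 2 arrays were not uniform in Lyz2: replicates 1 to 3 averaged 8.87 ± 0.17 in Ly6C+ and 9.18 in Ly6C- MFs, near the KO level, and replicates 4 to 6 averaged 12.8 ± 0.19 and 12.9. Counts of members in comparisons that use WT day 2 arrays were therefore also taken within each of these sets of 3 replicates, with values within a set for a part of the single genes.

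Over the 10 groups the interferon-stimulated genes traced a common course. The mean of the 36 log2 values was 9.44 ± 0.31 (SD, n = 4) in WT and 9.45 ± 0.58 (n = 4) in KO Ly6C+ MFs at day 1. At day 2 it was 9.54 ± 0.23 (n = 6) in WT Ly6C+ and 8.88 ± 0.19 (n = 6) in WT Ly6C- MFs, against 9.71 ± 0.19 and 9.06 ± 0.19 (n = 5 each) in KO. With rosiglitazone it was 9.52 ± 0.12 in Ly6C+ and 8.92 ± 0.11 in Ly6C- MFs (n = 3 each). At day 4 it reached 10.3 ± 0.12 in WT and 10.1 ± 0.10 in KO (n = 4 each). WT at day 4 was the group with the highest mean for 30 of the 36 members, and the Ly6C- groups of WT without drug and with rosiglitazone held the lowest mean for 18 and 12 members.

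**Figure D1:**
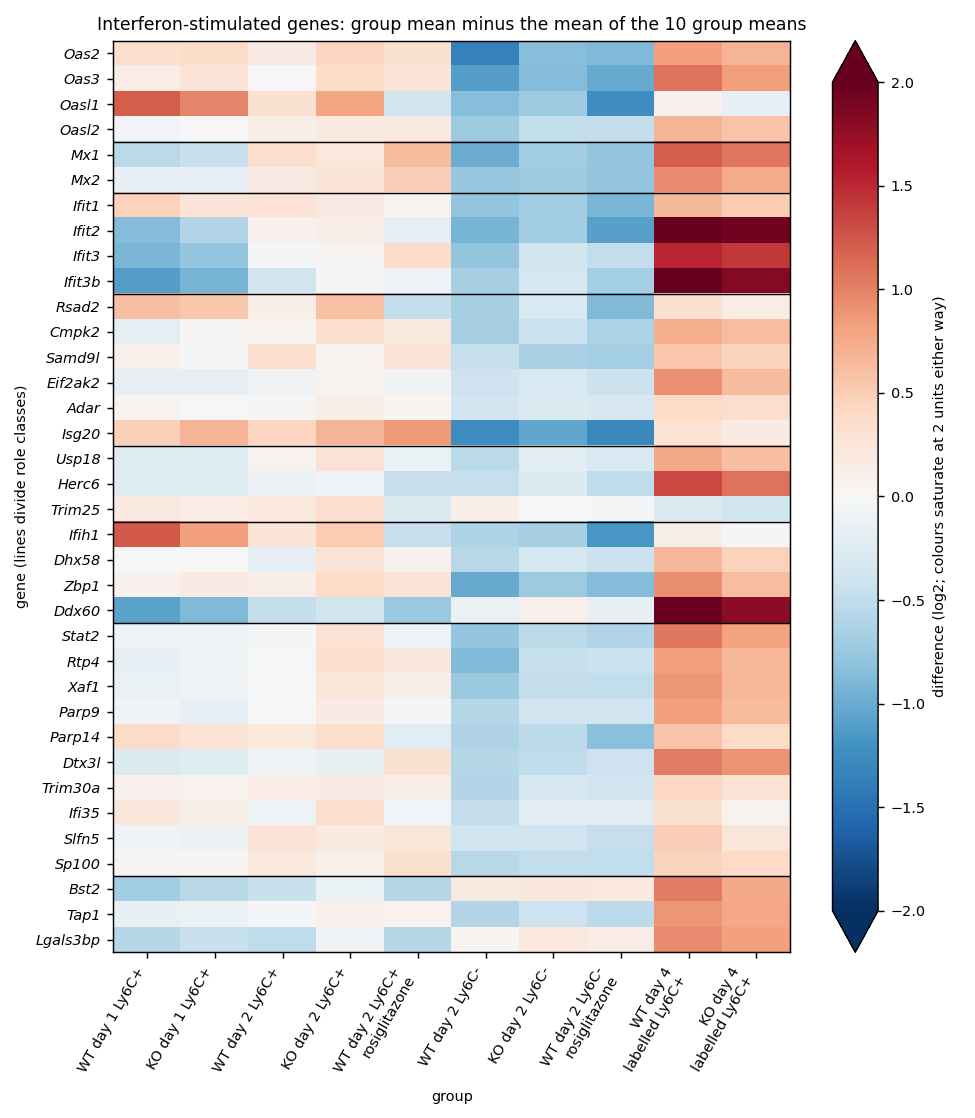
Heat map of the 36 members in rows, grouped by role with dividing lines, against the 10 groups in columns; colour is the group's mean log2 value minus the mean of the 10 group means for that gene, saturating at 2 units either way. The day 4 columns are the highest for most genes and the Ly6C- day 2 columns the lowest, while Oasl1, Rsad2 and Ifih1 are highest in WT at day 1.

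A few members left this course. Oasl1, Rsad2 and Ifih1 had their highest group mean in WT at day 1, Trim25 and Ifi35 in KO Ly6C+ MFs at day 2, and Isg20 in Ly6C+ MFs with rosiglitazone. Ifit3, Ifit3b, Bst2, Ddx60 and Lgals3bp had their lowest mean in WT at day 1 and not in a Ly6C- group.

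At day 2 the question is how the inflammatory Ly6C+ MFs differ from the Ly6C- MFs. In WT, 28 of 36 members were lower in Ly6C- than in Ly6C+ MFs by the moderated test of limma at an adjusted p below 0.05, where 23% of all genes were lower, and 2 were higher, where 22.2% were higher. The median member difference (Ly6C- minus Ly6C+) was -0.75 on the log2 scale against -0.07 for all genes, and the members ranged from -1.68 to 0.64. In bulk samples, fewer cells carrying an RNA and less of that RNA per cell cannot be told apart.

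Isg20 and Oas2 were the members that differed most between the subsets. Isg20, an RNA exonuclease, had a lowest, median and highest value of 10.10, 10.30 and 11.03 in the 6 WT Ly6C+ arrays and of 8.59, 8.77 and 9.05 in the 6 WT Ly6C- arrays. Every Ly6C- array lay below every Ly6C+ array, and the difference was -1.68 ± 0.17 (SE, adjusted p = 6.56e-11). Oas2, an oligoadenylate synthetase whose product activates RNase L, ran 9.95, 10.35 and 10.60 in Ly6C+ and 8.27, 8.90 and 9.12 in Ly6C- MFs. Those groups did not overlap either, and Oas2 fell by 1.52 ± 0.14 on the log2 scale, 2.86-fold (adjusted p = 9.36e-12). All 4 OAS and OAS-like genes fell, by 0.82 (Oasl2) to 1.52 (Oas2).

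Among the other antiviral effectors, both Mx GTPases fell, Mx1 by 1.33 ± 0.29 (adjusted p = 0.00026) and Mx2 by 0.92. The Mx1 allele of C57BL/6 makes no functional protein, so its RNA serves here as a readout of the promoter. Mx1 had 7.59, 8.77 and 9.06 (lowest, median, highest) in Ly6C+ and 6.21, 7.31 and 8.07 in Ly6C- MFs, and the groups overlapped through Ly6C+ replicate 6. Of the IFIT proteins, which bind foreign RNA, Ifit1 and Ifit2 fell by 1.08 and 1.02. Ifit1 ran 9.59, 9.77 and 10.85 in Ly6C+ and 8.51, 8.87 and 9.11 in Ly6C- MFs, again without overlap, while Ifit3 (-0.76, adjusted p = 0.0625) and Ifit3b (-0.30) did not pass. Rsad2, which encodes viperin, fell by 0.81, Cmpk2, a mitochondrial nucleotide kinase beside it, by 0.71, Samd9l by 0.81 and the RNA editor Adar by 0.40. The kinase PKR, encoded by Eif2ak2, was at -0.35 and did not pass.

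Genes of sensing and signalling followed. All 10 members grouped under signalling and transcription fell, from Rtp4 (-0.89) to Ifi35 (-0.39), including the partners Parp9 (-0.57) and Dtx3l (-0.49). Stat2, a subunit of ISGF3, ran 8.91, 9.45 and 9.57 in Ly6C+ and 8.19, 8.59 and 8.76 in Ly6C- MFs, a gap between the groups with a difference of -0.76 ± 0.16 (adjusted p = 0.000125). The sensors Zbp1 (-1.14), Ifih1, which encodes the RNA sensor MDA5 (-0.88), and Dhx58, which encodes LGP2 (-0.39), fell, and the helicase Ddx60 did not pass (0.34, adjusted p = 0.164). In the ISG15 system, Usp18, the protease that removes ISG15 and dampens the receptor, fell by 0.61 from values of 9.04, 9.86 and 9.97 to 8.71, 9.29 and 9.32, which overlapped through Ly6C+ replicate 6, and the ligases Herc6 (-0.35) and Trim25 (-0.08) did not pass.

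The exceptions that rose were surface or secreted proteins. Bst2, the membrane tether tetherin, ran 8.45, 8.96 and 9.20 in Ly6C+ and 9.27, 9.59 and 9.79 in Ly6C- MFs, so that every Ly6C- array was the higher, by 0.64 ± 0.13 (adjusted p = 7.17e-05). Lgals3bp, a secreted galectin-binding glycoprotein, rose by 0.55 ± 0.13 (adjusted p = 0.000494), again without overlap. Tap1, the peptide transporter of class I antigen presentation, fell by 0.54. Within WT day 2 replicates 1 to 3, 25 members were lower and 2 higher (median -0.67), and within replicates 4 to 6, 23 were lower and 2 higher (median -0.78).

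KO MFs, none of which share an array with WT, gave the same contrast. In KO, 28 members were lower in Ly6C- MFs, where 18.6% of all genes were lower, and 1 was higher, where 19.8% were higher, with a median of -0.65 (all genes -0.09). The lower members of the genotypes had 27 in common, 96.4% of either list, while Usp18 passed in WT and was at -0.51 in KO (adjusted p = 0.0678), and Trim25 passed in KO (-0.34, adjusted p = 0.0452) and was at -0.08 in WT (adjusted p = 0.613). Isg20 read 10.78, 10.92, 10.28, 10.82 and 10.78 in KO Ly6C+ and 9.10, 9.16, 8.69, 9.28 and 8.77 in KO Ly6C- MFs, and fell by 1.71 ± 0.18 (adjusted p = 6.4e-10). Oasl1, which was at -1.15 ± 0.15 in WT (adjusted p = 2.82e-08), fell by 1.52 ± 0.16 in KO (adjusted p = 5.48e-10), Oas2 by 1.28 ± 0.15 (adjusted p = 8.72e-09) and Oas3 by 1.24 ± 0.21 (adjusted p = 7.21e-06). Bst2 was again the higher member (0.36 ± 0.14, adjusted p = 0.0352), a call that was lost on leaving out any of 5 of the 10 KO arrays (Ly6C+ replicates 3 and 5, Ly6C- replicates 1, 2 and 4, with adjusted p from 0.0709 to 0.117). The difference of the subset contrasts between genotypes passed for 0 members, where 0.01% of all genes passed, and for 0 at an unadjusted p below 0.05 in limma, where 2.8% did, with a median member value of 0.02.

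**Figure D2:**
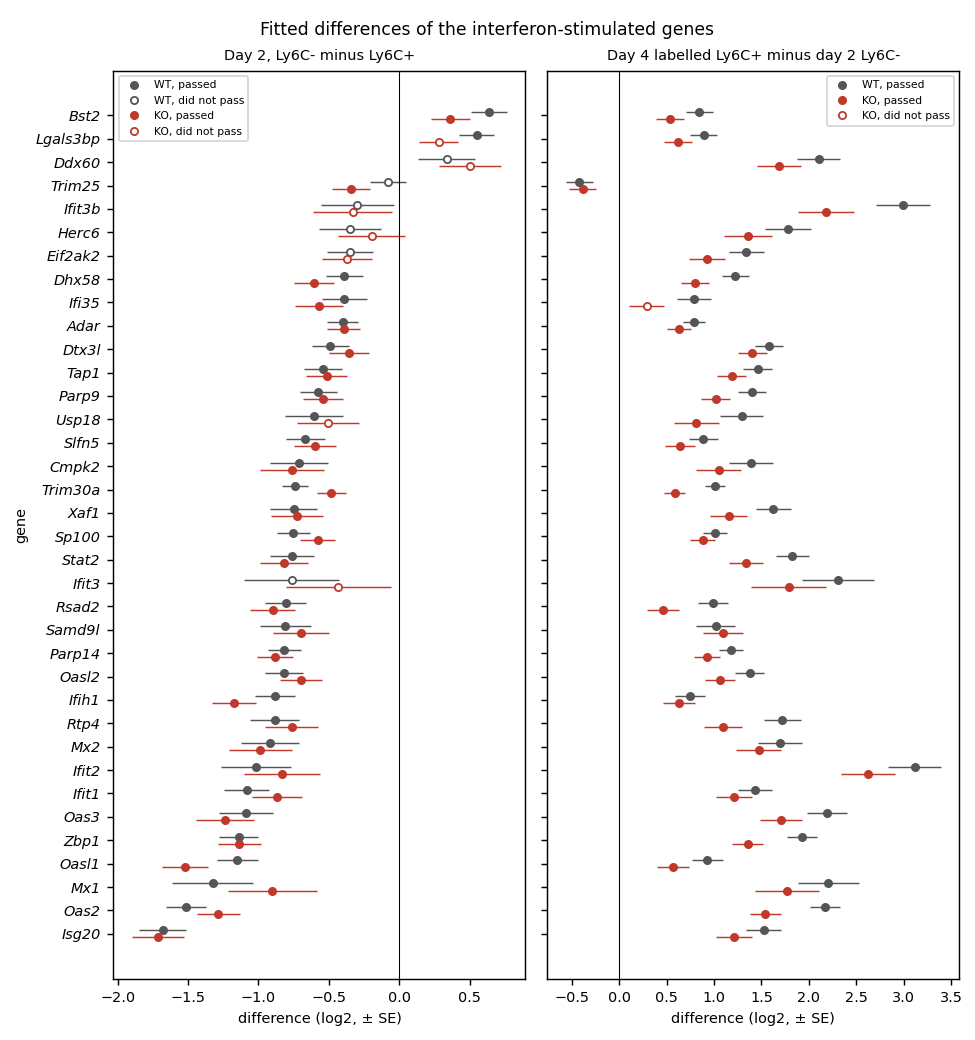
Difference of log2 values (point) and its SE (bar) for each member in WT (grey) and KO (red), filled where the adjusted p was below 0.05. In the subset comparison nearly all points lie left of 0 except Bst2, Lgals3bp and Ddx60. At day 4 against Ly6C- day 2 all points but those of Trim25 lie right of 0 in both genotypes.

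Cell type markers were also read between the WT subsets, where 23% of all genes were lower and 22.2% higher in Ly6C- MFs. Of 9 neutrophil markers 4 were lower and 1 higher in Ly6C- MFs, of 8 T and NK cell markers 4 were lower, of 6 dendritic cell markers 2 were lower, and of 7 endothelium and fibroblast markers 5 were lower. Within replicates 1 to 3, 6 of the 7 endothelium and fibroblast and 3 of the 8 T and NK cell markers were lower. Within replicates 4 to 6 these counts were 2 and 1, and 0 of either list were higher within either set. The mean over the dendritic cell markers ran from 6.90 to 7.14 in Ly6C+ and from 6.50 to 6.62 in Ly6C- MFs, and that over the T and NK cell markers from 5.56 to 5.78 and from 5.38 to 5.51. Their part in the difference of the interferon-stimulated genes was not tested.

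From day 1 to day 2 in Ly6C+ MFs of WT the members as a list hardly moved, and single genes moved in opposite directions. In WT, 1 member rose, where 6.51% of all genes rose, and 2 fell, where 3.17% fell, with a median of 0.11 (all genes 0.02). Ifih1 read 11.13, 11.16, 11.29 and 10.87 at day 1 and 9.60, 10.01 and 10.88 (lowest, median, highest) at day 2. The groups overlapped by 1 array on either side, and Ifih1 fell by 0.96 ± 0.16 (adjusted p = 4.85e-05). Oasl1, an OAS-like gene without synthetase activity in its product, read 11.09, 11.29, 11.66 and 11.24 at day 1 and 10.06 to 10.80 at day 2, where all 6 arrays were lower, and fell by 0.91 ± 0.17 (adjusted p = 0.000203). Ifit2 rose by 0.95 ± 0.28 (adjusted p = 0.0209), a call that was lost within replicates 4 to 6 (0.77, adjusted p = 0.16) and on leaving out WT day 1 replicate 2 (adjusted p = 0.0796) or 4 (0.118) or WT day 2 replicate 1 (0.0548). The count of members called went from 3 to 8 without WT day 2 Ly6C+ replicate 6 and to 6 without WT day 1 replicate 3. It was 7 within replicates 1 to 3, with 5 higher, and 2 within replicates 4 to 6, both lower.

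In KO, 1 member rose from day 1 to day 2, where 6.06% of all genes rose, and 0 fell, where 2.58% fell. The median was 0.24 (all genes -0.02), and 32 of 36 members lay above 0. In limma 9 of 36 members had an unadjusted p below 0.05, as did 24.5% of all genes. The riser was Ifit3b (0.92 ± 0.30, adjusted p = 0.045), and leaving out any of 6 of the 9 arrays, KO day 1 replicate 1, 2 or 3 or KO day 2 replicate 1, 2 or 4, gave an adjusted p between 0.0824 and 0.2. KO day 1 replicate 4 stood above its group: Mx1 read 9.29 there against 7.95, 7.33 and 6.60, and Usp18 read 10.56 against 9.50, 9.07 and 8.54. Without that array 17 members rose from day 1 to day 2 in KO, and the median went from 0.24 to 0.50. The share of all genes that rose in that fit was not taken, so the 17 cannot be set against it. Ifih1 (-0.30, adjusted p = 0.251) and Oasl1 (-0.19, adjusted p = 0.527) did not pass in KO. The difference between the genotypes in this change passed for 0 members, where 0.01% of all genes passed, and for 5 at an unadjusted p below 0.05 in limma, where 8.94% of all genes passed, led by Oasl1 (0.72, adjusted p = 0.365) and Ifih1 (0.66, adjusted p = 0.397).

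**Figure D3:**
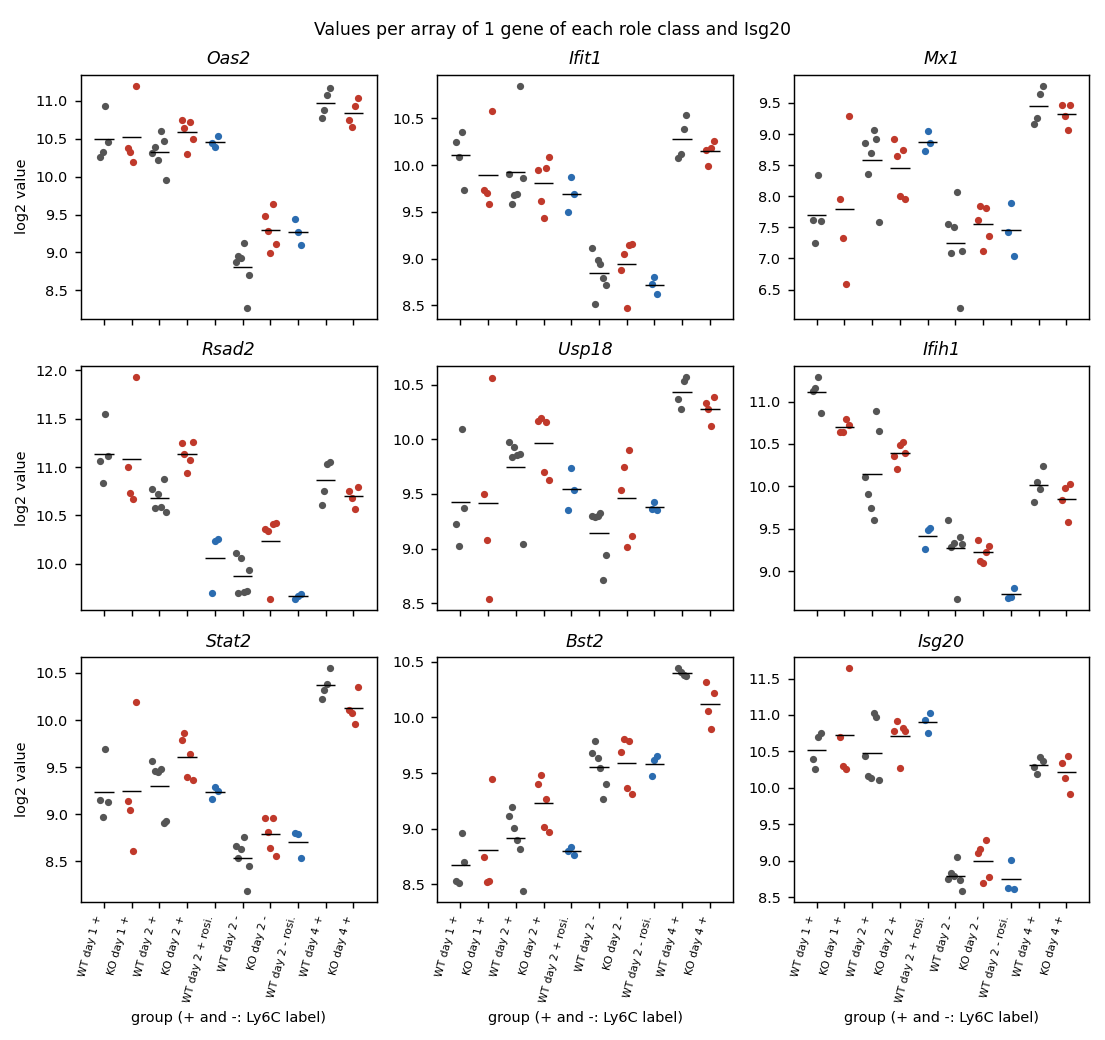
Log2 value of 9 members in each of the 44 arrays (points) with the group mean (line), by group on the horizontal axis. Oas2 and Isg20 separate the day 2 subsets without overlap, Bst2 is highest at day 4, and Ifih1 declines from WT day 1.

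By day 4 most members stood above their day 2 level. In WT, against Ly6C+ MFs of day 2, 26 members were higher, where 23.8% of all genes were higher, and 1 was lower, where 26% were lower, with a median of 0.78 against -0.09 for all genes. In 25 members every day 4 array lay above every day 2 array, as was the case for 16.9% of all genes. The count within WT day 2 replicates 1 to 3 was 24 higher and 1 lower, and within replicates 4 to 6 it was 25 higher and 0 lower.

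The steepest rises were among the IFIT genes and the helicase Ddx60. Ddx60 ran 6.32, 7.22 and 7.53 (lowest, median, highest) in WT Ly6C+ MFs at day 2 and read 9.50, 9.66, 9.59 and 9.61 at day 4. The day 4 arrays were thus all far above the day 2 arrays, by 2.44 ± 0.22 or 5.43-fold (adjusted p = 4.32e-12). Ifit3b read 5.19, 5.87 and 6.24 at day 2 and 8.12, 8.38, 8.81 and 8.71 at day 4, a rise of 2.69 ± 0.29 (adjusted p = 1.93e-10) that its copy Ifit3 shared at 1.55 ± 0.38 (adjusted p = 0.000841). Ifit2 rose by 2.10 ± 0.28 (adjusted p = 2.84e-08), and Ifit1 did not pass (0.35, adjusted p = 0.103).

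Bst2, Lgals3bp and Tap1 rose as well, by 1.48, 1.44 and 0.92, so that Bst2 and Lgals3bp, the members that were higher in Ly6C- MFs at day 2, were higher still at day 4. Bst2 read 10.44, 10.41, 10.38 and 10.37 in the WT day 4 arrays, each above all 12 WT day 2 arrays without drug. Herc6, the main ligase for ISG15 in the mouse, rose by 1.43, Dtx3l by 1.09, Stat2 by 1.07 and Eif2ak2 by 0.99. Trim25, the ubiquitin ligase that acts on the sensor RIG-I, was the one member that fell (-0.50 ± 0.14, adjusted p = 0.00295). Within replicates 4 to 6 that difference was -0.28 with an adjusted p of 0.139. Oasl1 (-0.22), Isg20 (-0.15), Ifih1 (-0.14) and Rsad2 (0.18) did not pass.

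KO MFs showed fewer members past the test from day 2 to day 4. In KO 13 members were higher, where 22.3% of all genes were higher, and 5 were lower, where 22.5% were lower, with a median of 0.35 (all genes -0.08). The 13 were all among the 26 of WT, 50% of that list. Ddx60 (2.18 ± 0.23, adjusted p = 2.59e-10), Ifit3b (1.85 ± 0.30, adjusted p = 1.89e-06) Ifit2 (1.80 ± 0.29, adjusted p = 1.64e-06) and Ifit3 (1.36 ± 0.40, adjusted p = 0.00483) again led. The 5 that fell were Oasl1 (-0.95 ± 0.17, adjusted p = 1.31e-05), Trim25 (-0.73 ± 0.14, adjusted p = 6.14e-05), Ifih1 (-0.54 ± 0.16, adjusted p = 0.00686), Isg20 (-0.50 ± 0.19) and Rsad2 (-0.43). Oasl1 read 10.88, 10.78, 10.80, 11.00 and 11.06 in KO Ly6C+ MFs at day 2 and 9.99, 10.32, 9.55 and 9.94 at day 4, with no overlap. The fall of Isg20 (adjusted p = 0.0329) was lost on leaving out any of 6 of the 9 arrays, KO day 2 replicate 1, 2, 4 or 5 or KO day 4 replicate 2 or 4, with adjusted p up to 0.124. With only the arrays of the compared groups in the fit, 28 members passed in KO in place of 18. The share of all genes that passed in that fit was not taken.

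The change from day 2 to day 4 was set against genotype directly. The difference between KO and WT in this change lay below 0 for 34 of 36 members, with a median of -0.35, and passed for 0, where 0.0301% of all genes passed. In limma 10 members had an unadjusted p below 0.05, where 8.46% of all genes did, with Ifit3b (-0.84), Oasl1 (-0.73, adjusted p = 0.36) and Dhx58 (-0.64, adjusted p = 0.36) among them. A difference between the genotypes in this change is thus not shown for any single member in this fit.

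Against Ly6C- MFs of day 2, whose Ly6c and Adgre1 levels lie nearer to the day 4 arrays, the rise took in nearly the whole list. In WT 35 members were higher, where 14.1% of all genes were higher, and 1, Trim25, was lower, where 15.2% were lower, with a median of 1.40 (all genes -0.01). In KO 34 were higher, where 13.1% of all genes were higher, and 1, again Trim25, was lower, where 11.8% were lower, with a median of 1.08 (all genes 0.01). The 34 were all among the 35 of WT, 97.1% of that list. Ifi35 rose in WT (0.79, adjusted p = 0.000442) and was at 0.29 in KO (adjusted p = 0.31), and the difference between the genotypes in this comparison was not tested. Within WT day 2 replicates 1 to 3, 35 members were higher and 1 lower (median 1.32), and within replicates 4 to 6, 35 were higher and 0 lower (median 1.46).

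Ifit2 ran 7.09, 7.62 and 7.92 (lowest, median, highest) in WT Ly6C- MFs and read 10.52, 10.61, 10.73 and 10.90 at day 4. No day 4 array came near the day 2 range, and the rise was 3.11 ± 0.28 or 8.66-fold (adjusted p = 4.04e-12) in WT and 2.63 ± 0.29 (adjusted p = 1.42e-09) in KO. Ifit3b rose by 2.99 ± 0.29 in WT (adjusted p = 3.38e-11) and 2.18 ± 0.30 in KO (adjusted p = 1.94e-07), and Ifit3 by 2.31 ± 0.38 (adjusted p = 4.6e-06) and 1.79 ± 0.40 (adjusted p = 0.000463). Mx1 rose by 2.20 ± 0.32 (adjusted p = 5.38e-07) in WT and 1.77 ± 0.34 (adjusted p = 5.86e-05) in KO. Trim25 fell by 0.42 ± 0.14 in WT (adjusted p = 0.0182) and by 0.39 ± 0.14 in KO (adjusted p = 0.0444). The Trim25 call was lost in WT within replicates 4 to 6 (-0.23, adjusted p = 0.318) and without WT Ly6C- replicate 2 (0.0501) or WT day 4 replicate 1 (0.0808), and in KO on leaving out 7 of 9 arrays, all but KO Ly6C- replicates 1 and 3, with adjusted p up to 0.163.

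Markers of other cells moved at day 4 too, in either direction. Of all genes, 23.8% were higher and 26% lower against WT Ly6C+ MFs of day 2. Against WT Ly6C- MFs these shares were 14.1% and 15.2%. Against WT Ly6C+ MFs of day 2, 4 of 6 skeletal muscle fibre markers and 3 of 8 T and NK cell markers were higher and none of either list lower, 7 of 9 neutrophil markers were lower and 1 higher, and 6 of 7 MF and leukocyte markers were higher and 1 lower. Within WT day 2 replicates 1 to 3, 4 muscle and 1 of the T and NK cell markers were higher. Within replicates 4 to 6 these counts were 4 and 2, and 0 were lower within either set. The mean over the muscle markers ran from 6.48 to 6.67 at day 2 and from 7.07 to 7.18 at day 4, and that over the T and NK cell markers from 5.56 to 5.78 and from 5.95 to 6.07. Of 5 plasmacytoid dendritic cell markers, one of which is the member Bst2, 2 were higher and 1 lower, with list means of 7.55 to 7.94 at day 2 and 7.87 to 7.94 at day 4. Of 6 dendritic cell markers 2 were higher and 2 lower, and their mean went from 6.90 to 7.14 at day 2 to 7.38 to 7.53 at day 4. Of 7 endothelium and fibroblast markers 1 was higher and 2 were lower. Against WT Ly6C- MFs, where nearly all members rose, 4 of the 6 dendritic cell, 5 of the 8 T and NK cell, 4 of the 6 muscle, 3 of the 7 endothelium and fibroblast, 2 of the 5 plasmacytoid dendritic cell and 5 of the 7 MF and leukocyte markers were higher, with 1 of the MF and leukocyte markers lower and none of the other 5 lists. Of the 9 neutrophil markers 1 was higher and 2 were lower. The list means in Ly6C- MFs ran from 6.50 to 6.62 for dendritic cells, from 5.38 to 5.51 for T and NK cells and from 6.45 to 6.69 for muscle, each range below that of day 4. Their part in the rise of the interferon-stimulated genes was not tested.

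Loss of PPARγ moved no member past the test at any time. KO minus WT passed for 0 of 36 members in Ly6C+ MFs at day 1 (0.0301% of all genes higher, 0.00502% lower), in Ly6C+ MFs at day 2 (1.09% higher, 0.787% lower), in Ly6C- MFs at day 2 (0.0853% higher, 0.115% lower) and at day 4 (0.0451% higher, 0.0201% lower). At an unadjusted p below 0.05 in limma the counts were 1, 6, 4 and 0, against 3.11%, 15.6%, 9.92% and 2.97% of all genes. The 95% interval of a member's difference reached, at the median, 0.38 log2 units to either side at days 1 and 4 and 0.32 at day 2. Differences of that size were not resolved. The interval is not adjusted for the number of genes and is wider for some members, so larger differences could also miss the test. Oasl1, at 0.49 in Ly6C+ MFs at day 2, was above that size and did not pass.

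The direction of the small differences was shared by most members and differed between times. At day 1 the median was 0.01, with 19 members above 0 and 17 below, and it was -0.24 without KO day 1 replicate 4. At day 2 the median was 0.15 in Ly6C+ MFs, with 30 members above 0, and 0.21 in Ly6C- MFs, with 32 above 0. At day 4 it was -0.17, and all 36 members lay below 0. Members that vary together from array to array do not give separate evidence on direction.

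Oasl1 and Rsad2 were the members with the largest differences in KO Ly6C+ MFs at day 2. Rsad2 read 11.25, 11.13, 10.94, 11.07 and 11.26 in KO and 10.54, 10.65 and 10.87 (lowest, median, highest) in WT. The groups did not overlap, and the difference was 0.45 ± 0.15 with an adjusted p of 0.108. Oasl1 was at 0.49 ± 0.15 (adjusted p = 0.0851). It passed against WT replicates 1 to 3 alone (0.49, adjusted p = 0.0446) and without WT Ly6C+ replicate 6 (0.57, adjusted p = 0.0304). The count of members called against WT replicates 1 to 3 was 3 in Ly6C+ and 2 in Ly6C- MFs. Against WT replicates 4 to 6 it was 1 and 0, and without WT Ly6C+ replicate 4 it was 3 in Ly6C+ MFs. The shares of all genes in those fits were not taken.

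In Ly6C- MFs at day 2 Oas2 (0.49 ± 0.15, adjusted p = 0.2) and Rtp4 (0.45 ± 0.18, adjusted p = 0.396) had the largest KO minus WT differences. At day 1 Ifih1 was at -0.41 ± 0.17 (adjusted p = 0.9999). It read 10.64, 10.64, 10.79 and 10.72 in KO, below each of the 4 WT values. At day 4 Ifit3b (-0.49 ± 0.31) and Zbp1 (-0.30) were farthest from 0, both with an adjusted p of 0.9999.

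**Figure D4:**
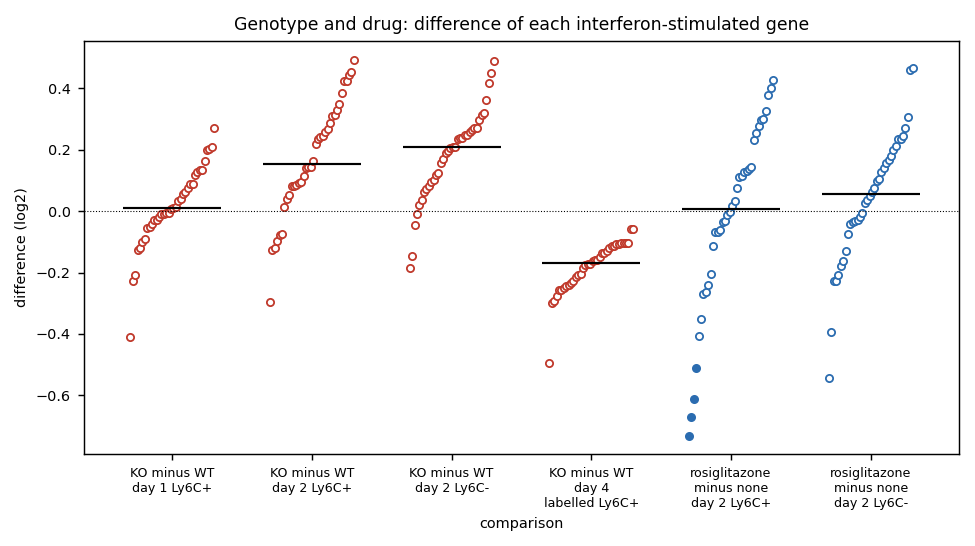
Difference of log2 values for each of the 36 members (points) with the median (line) in the 4 comparisons of KO with WT and the 2 of rosiglitazone with no drug; filled points passed an adjusted p of 0.05. Medians lie between -0.17 and 0.21, and the filled points are the 4 members that fell with rosiglitazone in Ly6C+ MFs.

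With rosiglitazone a few members were called lower in Ly6C+ MFs at day 2, depending on the arrays compared, and the list's median hardly moved. There 4 members were lower, where 5.6% of all genes were lower, and 0 were higher, where 5.52% were higher, with a median of 0.01 (all genes -0.02). In limma 7 members had an unadjusted p below 0.05, as did 25.2% of all genes. Ifih1 read 9.26, 9.48 and 9.51 with the drug, below all 6 arrays without it, of which the lowest was 9.60, and fell by 0.73 ± 0.17 (adjusted p = 0.00487). Oasl1 read 9.34, 9.92 and 9.96, again below all 6, and fell by 0.67 ± 0.18 (adjusted p = 0.0129). Rsad2 read 9.70, 10.24 and 10.26, below the untreated range of 10.54 to 10.87, and fell by 0.61 ± 0.18 (adjusted p = 0.0204). Trim25 fell by 0.51 ± 0.15 (adjusted p = 0.025), with arrays that overlapped those without the drug.

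These calls rested on which arrays were compared. Against WT replicates 4 to 6, whose Lyz2 level is near that of the rosiglitazone arrays, only Ifih1 passed (-0.96, adjusted p = 0.0108), while Oasl1 was at -0.67 (0.0837), Rsad2 at -0.60 (0.141) and Trim25 at -0.29 (0.395). Against replicates 1 to 3, 5 members were lower and 1 higher, and the shares of all genes in that fit were not taken. Without rosiglitazone replicate 1, 0 members passed, with Ifih1 at an adjusted p of 0.0534, Oasl1 at 0.172, Rsad2 at 0.21 and Trim25 at 0.165, and with only the compared groups in the fit 0 passed. Trim25 also missed the threshold without WT Ly6C+ replicate 2 (0.07) or 3 (0.0603) or rosiglitazone replicate 3 (0.0621).

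In Ly6C- MFs rosiglitazone moved 0 members past the test (0.015% of all genes higher, 0.0201% lower), with 4 at an unadjusted p below 0.05 in limma, where 9.63% of all genes passed, and a median of 0.06. Ifih1 read 8.69, 8.70 and 8.80 with the drug against 8.67, 9.33 and 9.60 (lowest, median, highest) without it, where only WT replicate 4 was as low, and its difference was -0.54 ± 0.17 (adjusted p = 0.275). Without that replicate it was -0.66 with an adjusted p of 0.0257, and against replicates 1 to 3 it was -0.68 with an adjusted p of 0.000115. The drug's difference between the subsets passed for 0 members, where 0.015% of all genes passed, and 0 members had an unadjusted p below 0.05 in limma, against 7.76% of all genes.

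Ifnb1, which encodes interferon beta, was lower in Ly6C- than in Ly6C+ MFs, as most members were, and was among its lowest levels at day 4, when the members were at their highest. It averaged 9.34 ± 0.30 in WT at day 1 (n = 4), 7.18 ± 1.63 in Ly6C+ (n = 6) and 6.20 in Ly6C- MFs at day 2, and 5.75 at day 4. Between the subsets it was at -0.97 in WT (adjusted p = 0.0473) and -1.83 in KO (adjusted p = 0.00121). It fell from day 1 to day 2 in Ly6C+ MFs of WT (-2.16, adjusted p = 0.00118), and from Ly6C+ MFs of day 2 to day 4 in WT (-1.43, adjusted p = 0.00864) and KO (-2.93, adjusted p = 1.89e-06). The change from day 1 to day 2 did not pass in KO (-0.17, adjusted p = 0.857). From Ly6C- MFs of day 2 to day 4 Ifnb1 did not pass in WT (-0.455, adjusted p = 0.52) or in KO (-1.10, adjusted p = 0.0874). Its day 4 means, 5.75 in WT and 5.60 in KO, lay below the lowest array median of 6.64, at the low end of the scale. In WT Ly6C+ MFs at day 2 the sets of replicates did not overlap in Ifnb1, with means of 5.91 in replicates 1 to 3 and 8.44 in replicates 4 to 6, so each WT difference through that group depends on the set. Within replicates 1 to 3 the subset difference was -0.10 (adjusted p = 0.797), the change from day 1 to day 2 was -3.43 (adjusted p = 3.69e-12) and that from day 2 to day 4 was -0.16 (adjusted p = 0.59). Within replicates 4 to 6 they were -1.85 (adjusted p = 0.000882), -0.90 (adjusted p = 0.156) and -2.69 (adjusted p = 7.84e-07). KO minus WT in Ly6C+ MFs at day 2 was 2.61 against replicates 1 to 3 (adjusted p = 2.33e-09) and 0.08 against replicates 4 to 6 (adjusted p = 0.96). Over the 10 group means the member mean and Ifnb1 had r = -0.08, given as a description of 10 points that share their arrays.

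**Figure D5:**
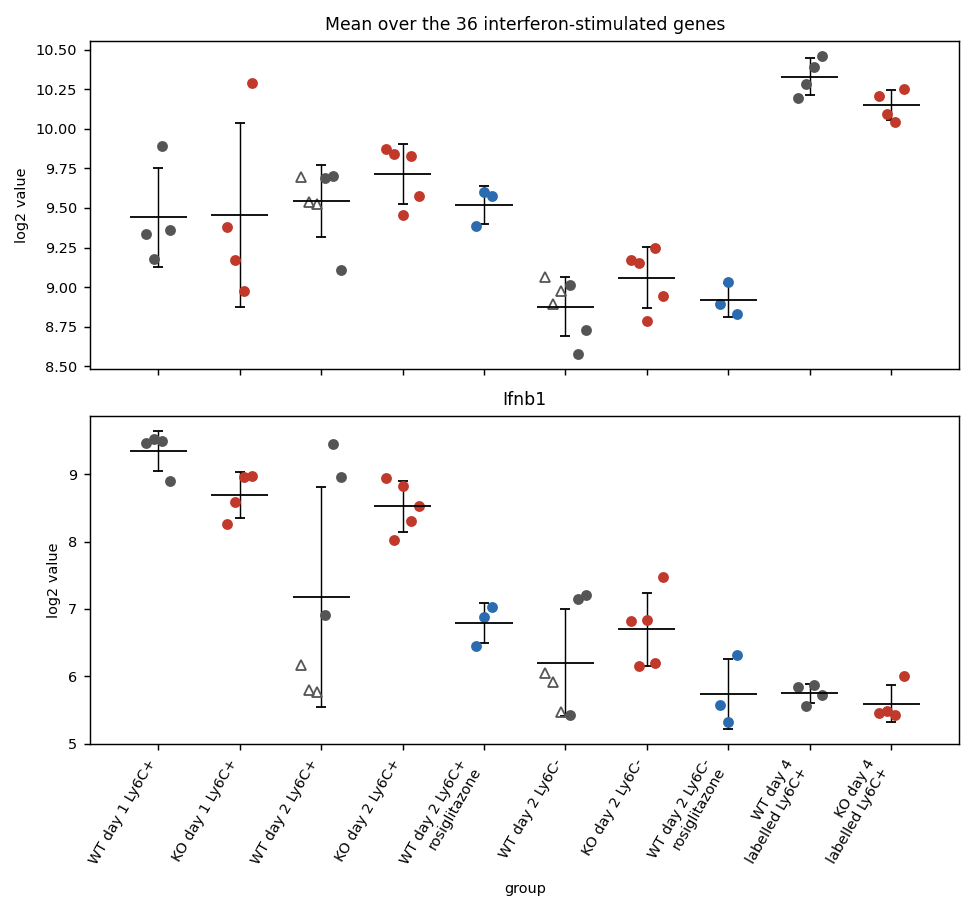
Mean log2 value over the 36 members (one panel) and log2 value of Ifnb1 (the other) in each array by group, with the group mean (line) and SD (bars); WT grey, KO red, rosiglitazone blue, open triangles WT day 2 replicates 1 to 3. The member mean is highest at day 4, near 10.3 in WT, where Ifnb1 is among its lowest values, near 5.75.

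Members differed in how their group means ran with those of Ifnb1. Oasl1 (r = 0.84), Ifih1 (0.80), Trim25 (0.70), Rsad2 (0.67) and Isg20 (0.54) were the 5 members above 0.5, and they include all 3 whose mean was highest in WT at day 1. For 21 members r lay below 0, lowest for Bst2 (-0.78), Ddx60 (-0.72) and Lgals3bp (-0.71). The WT day 2 groups pool both sets of replicates, which did not overlap in Ifnb1 in Ly6C+ MFs. A difference between the sets thus enters each r with Ifnb1 given here. After removal of group means, over 44 arrays, Ifih1 had r = 0.71 with Ifnb1 and -0.05 with the mean of the other members. By the same measure 28 members had r above 0.8 with the others and the median pair of members had r = 0.73, while Trim25 (0.08) and Oasl1 (0.40) were, like Ifih1, loosely tied to the rest.

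Irf7, the factor that amplifies interferon production and is itself induced by it, moved with the members. It was lower in Ly6C- than in Ly6C+ MFs by 1.10 in WT (adjusted p = 1.77e-06) and 0.95 in KO (adjusted p = 9.7e-05), and from Ly6C- MFs of day 2 to day 4 it rose by 2.29 in WT (adjusted p = 1.07e-12) and 1.65 in KO (adjusted p = 1.68e-08). Within either set of WT day 2 replicates both WT calls held, at -1.14 and -1.05 between the subsets and at 2.15 and 2.43 to day 4. After removal of group means it had r = 0.84 with the member mean. Isg15 and Ifi44 had no probe set of their own and were not analysed here.

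The rest of the pathway was read from listed genes, to be set against the shares of all genes. Lower and higher in Ly6C- than Ly6C+ MFs were 23% and 22.2% of all genes in WT and 18.6% and 19.8% in KO. Higher and lower at day 4 against Ly6C+ MFs of day 2 were 23.8% and 26% in WT and 22.3% and 22.5% in KO, and against Ly6C- MFs 14.1% and 15.2% in WT and 13.1% and 11.8% in KO. Of 10 JAK-STAT and IRF factors, 7 were lower and 1 higher in WT Ly6C- than Ly6C+ MFs, and the same counts were found in KO. From Ly6C- MFs to day 4, 8 of them rose and 1 fell in WT, and 7 rose and 1 fell in KO. Of 13 genes of nucleic acid sensing, 6 were lower and 2 higher in WT Ly6C- MFs, including Tlr9, an endosomal DNA sensor (-1.42, adjusted p = 2.98e-11), and Ddx58, which encodes RIG-I (-0.92), against Mavs, the adaptor of both RIG-I and MDA5 (0.74). Against day 2 Ly6C+ MFs, 7 of the 13 rose and 3 fell at day 4 in WT, with Tlr3, an endosomal RNA sensor, at 2.05 (adjusted p = 1.03e-12).

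Ligands and receptors moved less evenly. Of 7, 3 were lower and 0 higher in Ly6C- MFs in each genotype, and from Ly6C+ MFs of day 2 to day 4, 4 rose and 2 fell in WT while 0 rose and 2 fell in KO. The WT counts moved with the replicate set, to 1 lower and 0 higher between the subsets and 3 rising and 0 falling to day 4 within replicates 1 to 3, and to 3 lower and 0 higher and 1 rising and 2 falling within replicates 4 to 6. Of 8 negative regulators, one of them the member Usp18, 2 were lower in Ly6C- MFs in each genotype, and 4 rose and 3 fell at day 4 against WT Ly6C+ MFs, with Socs3 at -1.67 (adjusted p = 1.32e-07). Between genotypes the receptor chain Ifnar1 was the only gene of these lists past the test, higher in KO Ly6C+ MFs at day 2 by 0.27 (adjusted p = 0.0458). That call was lost against WT replicates 4 to 6 (0.22, adjusted p = 0.159), while against replicates 1 to 3 Ifnar1 was at 0.31 (adjusted p = 0.00691) and 5 of the 7 ligands and receptors were higher in KO in either subset.

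A list of 21 other interferon-induced genes was read beside the members. In WT 11 were lower and 1 higher in Ly6C- MFs (11 and 1 within WT day 2 replicates 1 to 3, 6 and 1 within replicates 4 to 6), where Ifi205, an interferon-inducible gene of the HIN domain family, was at -2.00 (adjusted p = 8.34e-14) and the chemokine gene Cxcl10 at -1.17, and in KO 10 were lower and 1 higher. From Ly6C- MFs to day 4, 18 rose and 1 fell in WT, and 16 rose and 1 fell in KO. Cxcl9, a chemokine gene induced mostly by interferon gamma, rose from Ly6C+ day 2 to day 4 by 3.08 in WT (adjusted p = 1.19e-12) and by 3.01 in KO (adjusted p = 7.69e-12). With rosiglitazone in Ly6C+ MFs 1 of the 21 fell and 0 rose, the chemokine gene Ccl5 at -1.95 (adjusted p = 0.00158).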

How the data were processed

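The deposited values are log2 intensities that, per the labels' processing notes, were made with RMA (background correction, quantile normalization and probe set summary); its version is not given in the sources used here. Of 35556 probe sets, 21789 carried 1 gene symbol in GEO's platform annotation, 1621 several and 12146 none. The probe set with the highest mean stood for a gene, which left 19938 genes. Each array measured 1 sorted sample, and the number of arrays limits the precision. Quantile normalization sets all arrays to 1 distribution, so a shift of most genes at once would not be seen.

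One mean per group was fitted over all 44 arrays with lmFit and eBayes of limma 3.58.1 in R 4.3.3 (34 residual and 6.46 prior degrees of freedom), with contrasts between group means and Benjamini-Hochberg adjustment over the 19938 genes; calls are at an adjusted p below 0.05. Differences are on the log2 scale with their SE. The code was tested on simulated data. Members, gene lists, roles and tests were chosen with earlier results of these data known. Named in each comparison were up to 4 called members with the largest rise and 4 with the largest fall, or the 2 largest where none was called, the first member of each role with its arrays, and up to 3 called genes of each pathway list; other members stand with their role.

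Alternatives were the arrays fitted, median centring, trend and robust variance, array weights, averaged probe sets, a filter on dim genes (mean of at least 6), WT day 2 replicate sets, replicate blocks and leaving out each array.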

Additional observations from a re-analysis of the deposited data

Results flagged for a closer look

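Of 80 sets of values (the plotted members and the member mean, by group), 7 had an array standing apart from the rest of its group. For separate sets chance alone gives about 1 in 20. These sets are not separate, because members vary together and the member mean contains the plotted members. The count therefore cannot be judged against that rate. The mean over the 36 members was 9.11 in WT day 2 Ly6C+ replicate 6, below the nearest array at 9.53, and Usp18 was 9.04 in the same array. Ifit1 was 10.6 in KO day 1 replicate 4 and 10.8 in WT day 2 Ly6C+ replicate 5, each above its group. Rsad2 was 9.64 in KO day 2 Ly6C- replicate 3, and Isg20 was 10.3 in KO day 2 Ly6C+ replicate 3, each below its group. Ifih1 was 8.67 in WT day 2 Ly6C- replicate 4, below its group.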

How the results depend on the processing

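Counts of members called kept within 1.5 times their main value in 325 of 363 recomputations. Medians moved by less than the spread between arrays in 247 of 249. The share of all genes called was not taken in these recomputations, so their counts concern the members only. The counts for the subsets in either genotype and for WT at day 4 kept within 1.5 times under every alternative run. With only the compared groups fitted, 28 members were called in KO from day 2 to day 4 (18 in the main result) and 0 with rosiglitazone in Ly6C+ MFs (4). From day 1 to day 2 in KO (1), median centring and the trend and robust variance each gave 0 and array weights 16. Array weights also gave 4 for KO minus WT in Ly6C+ and 1 in Ly6C- MFs at day 2 (0 each), 7 with rosiglitazone in Ly6C+ MFs, and 1 each for the differences between genotypes in the change to day 2 and to day 4 (0 each). WT day 2 replicates 1 to 3 alone gave 7 for WT day 1 to day 2 (3), 3 and 2 for KO minus WT in Ly6C+ and Ly6C- MFs, 3 with rosiglitazone in Ly6C- MFs (0), and 1 for each of the 3 genotype differences; replicates 4 to 6 gave 1 for KO minus WT in Ly6C+ MFs and 1 with rosiglitazone. The cause was not tested.

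Leaving out one array gave 2 to 8 members for WT day 1 to day 2, 0 to 17 for KO, 0 to 3 for KO minus WT in Ly6C+ MFs at day 2, 0 to 5 with rosiglitazone in Ly6C+ and 0 to 1 in Ly6C- MFs. The median ran from -0.24 to 0.17 for KO minus WT at day 1 and from 0.10 to 0.50 for KO day 1 to day 2. Ifit2, at 0.27 for KO minus WT at day 1, ran from -0.26 (without KO day 1 replicate 4) to 0.59. Of named differences, 869 recomputed values kept direction and call, 52 lost the call and 8 gained it.

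Replicate numbers recur across groups. Same-numbered arrays of the WT subsets deviated together with r of 0.01 to 0.60 (3 of 6 best with their own number). Those of the KO subsets did so with 0.04 to 0.29 (4 of 5). In no comparison did every pair pass 0.1, and the main fit does not pair the arrays. The member mean deviated by 0.16, 0.12, -0.26, 0.11 and -0.14 in KO Ly6C+ replicates 1 to 5. In KO Ly6C- replicates it deviated by 0.11, 0.09, -0.28, 0.19 and -0.12. WT replicate 5 went opposite ways, at 0.16 and -0.30. A pairing of the KO subsets therefore remains possible, and the main subset tests leave it out. With the replicate block and only the compared groups, the counts were 8 for WT and 3 for KO from day 1 to day 2, 28 for KO day 2 to day 4, and 9 and 3 with rosiglitazone in Ly6C+ and Ly6C- MFs. The arrays per group limit what small differences can be seen.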
